A study of Rattus norvegicus with 12 samples.

Results

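Mesenteric lymph nodes of 21-day-old Wistar rat pups that had received conjugated linoleic acid (CLA) before and after birth were compared with nodes of pups that had received none. The comparison takes in 6 of the 12 arrays of the series, chosen by their group labels, with 1 animal on each array, and it is described over all 31042 probe sets that are not array controls. In Group B the dams ate a diet with 1% CLA for the last 2 weeks of gestation and a standard diet afterwards, and the pups were given CLA by mouth through a gavage tube every day for the 3 weeks of suckling, 5 weeks of CLA in all. In Group D the dams ate the standard diet throughout and the pups had no CLA, and no mock gavage is described for them. The CLA was a mixture of the c9,t11 and t10,c12 isomers at 80:20. The other 6 arrays, Group A (the same 5 weeks of CLA, but through the milk of the dam in suckling) and Group C (CLA by gavage for the 3 weeks of suckling alone), shared the normalization and the estimate of the spread, and both are compared with Group B at the end. Arrays are named below by group and replicate, D1 to D3 and B1 to B3. The sources do not tell which pups shared a litter or a dam, so p-values measure the spread between these animals and cannot separate litters from treatment.

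CLA is the name for a family of linoleic acid isomers with conjugated double bonds, found in ruminant fat and in milk. Polyunsaturated fatty acids of this kind can act as ligands of the PPAR nuclear receptors, which switch on genes of fat burning and fat storage, and they can lower the activity of the SREBP factors that drive fatty acid and cholesterol synthesis. Mesenteric lymph nodes lie in the fat of the mesentery and filter the lymph of the intestine. They hold T cells in the paracortex, B cells in follicles and a scaffold of stromal cells and specialised venules.

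Values are log2 intensities after quantile normalization, on which 1 unit is a doubling, and each difference is Group B minus Group D with 3 arrays a group. The labelled tissue was borne out by its defining genes. Ccl21, a chemokine of lymph node stroma that attracts T cells, read 11.74 to 12.12 on the 6 arrays, and Cxcl13, its counterpart for B cells, read 10.44 to 10.92. Glycam1, a product of lymph node venules, read 10.52 to 11.41. Deposited array medians were 19.3 to 30.9 in Group B and 34.3 to 38.5 in Group D, so the direction of small changes depends on the scaling. The ratio of 3′ to 5′ signal for hexokinase, an index of RNA integrity and labelling, was 1.62 to 3.24 in Group B and 1.84 to 2.53 in Group D, and that for Gapdh was 1.10 to 1.12 and 1.06 to 1.22. The same ratio for actin was 1.30 and 1.5 in D1 and D2, 1.91 in D3, the highest of the 12 arrays, and Group B gave 1.44 to 1.79, Group C 1.60 to 1.74 and Group A 1.37 to 1.79. Actin thus ran in part with the split of D3 from D1 and D2, and its part in the results was not tested.

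The library labelled Group D replicate 3 stood apart from the other controls. D3 had a mean correlation of 0.931 with the Group B arrays and of 0.896 with D1 and D2, over all probe sets. On the first principal component of all 12 arrays, which held 28.2% of the variance, D3 lay at -61.3, beside the Group B arrays at -61.1 to -46.4, whereas D1 and D2 lay at 53.9 and 44.1. Group C lay at -69.3 to -55.5 and Group A at 87.8 to 111, beyond D1 and D2. The component thus did not part arrays with CLA from those without. Results are therefore given with all arrays and again without D3, in fits called all-array and D3-free below.

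With all arrays, 5 of 31042 probe sets (0.0161%) passed an adjusted p of 0.05 in limma together with a fold of 2, of which 3 (0.00966%) fell and 2 (0.00644%) rose. Among them a keratin and meteorin fell and a gluconeogenic enzyme and a globin rose. With no adjustment of p (limma p under 0.05) but the fold kept, 803 (2.59%) lay lower and 1281 (4.13%) lay higher. All 3 supplemented arrays lay below all 3 controls for 7.92% of probe sets and above them for 6.70%. With 1 probe set taken per gene and no fold asked for, the adjusted test left 2 genes lower (0.0141%) and 1 higher (0.00703%) of 14217. Krt8, the keratin of simple epithelia and of the mesothelial lining, read 7.27, 7.58 and 7.86 in D1, D2 and D3 and 4.94, 5.06 and 5.32 in B1, B2 and B3. All 3 control arrays were above all 3 supplemented ones, and D3 was the highest. The difference was -2.46 ± 0.21 (SE), a 5.51-fold fall (adjusted p = 0.00137, limma). Krt8 also stayed called with each array left out in turn, but not when Groups B and D were fitted on their own (adjusted p = 0.225, limma).

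Pck1, the cytosolic enzyme that commits oxaloacetate to glucose and, in fat, to the glycerol of triglycerides, read 7.39, 7.21 and 7.48 in D1, D2 and D3 and 8.70, 9.32 and 8.77 in B1, B2 and B3. Here D3 sat with the other controls. The rise was 1.57 ± 0.18 (SE), or 2.97-fold (adjusted p = 0.0144, limma). Its call was lost without D2 (difference 1.5, adjusted p = 0.0785, limma), without the variance trend (adjusted p = 0.0537, limma), on the values as deposited (0.97, adjusted p = 0.0672, limma) and with Groups B and D fitted alone (adjusted p = 0.49, limma).

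Metrn encodes meteorin, a secreted factor known from glial cells and neurons. It read 5.04, 5.56 and 4.59 in the controls and 0.48, 2.11 and 1.26 in Group B, where all 3 arrays were within background. Its difference on the values as read was -3.78 (adjusted p = 0.0162, limma). Background was taken on each array as the 95th percentile of 27 spike-in probe sets whose transcripts were not added. With the dim arrays raised to it, Metrn was at least 5.32-fold lower in Group B, a fold that was not itself tested. Leaving out any of A1, A2, A3, B3, D1 or D2 took its adjusted p to between 0.0512 and 0.109, and raising the floor of the intensities to 32 left a difference of -0.20 (adjusted p = 0.728, limma).

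The remaining pair of calls came from probe sets shared by near-identical genes, so neither can be tied to 1 gene. The globin probe set, annotated to the adult beta globins Hbbl1 and Hbb-bs of red blood cells, read 6.45, 8.08 and 6.60 in Group D and 9.88, 10.78 and 10.72 in Group B, without overlap. It rose 10.7-fold (difference 3.42 ± 0.43, SE, adjusted p = 0.0234, limma), a call lost without A1, A2, A3, B2, B3, C1 or D1, at most to an adjusted p of 0.161. The 10 other red blood cell genes did not share this rise, with a median difference of -0.40, and 1 of them was lower at an unadjusted limma p under 0.05 and 0 higher. The other probe set, annotated to Pilrb-ps1 and Pilrb2 of a family of paired immunoglobulin-like receptors, read 7.09, 6.92 and 6.57 in Group D and 5.27, 5.36 and 5.80 in Group B and fell by 1.38 (SE 0.19, adjusted p = 0.0391, limma). It was called without D3 or without B3, and with any other single array left out its adjusted p was 0.0846 to 0.167.

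**Figure D1:**
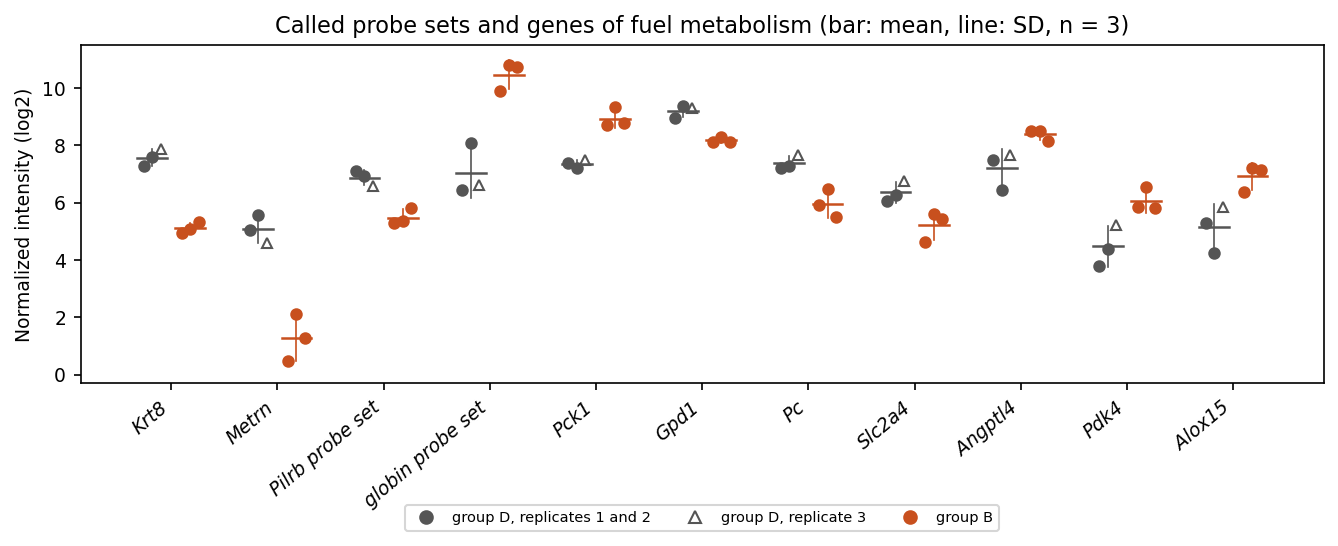
Normalized log2 intensity (vertical axis) of called and metabolic genes on each array of Groups D and B, each point 1 animal, bars group means and lines the SD (n = 3), D3 an open triangle. Krt8 lay at 7.27 to 7.86 in Group D and 4.94 to 5.32 in Group B, and Pck1 at 7.21 to 7.48 and 8.70 to 9.32, with D3 beside D1 and D2 in both.

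The bases before the start of Pck1 are shown because it rose and because its promoter is a textbook target of the cyclic AMP signal of fasting. The letters TGACGTNA, a form of the cyclic AMP response element, were searched on both strands, and they occurred in 2.88% of 33469 promoter windows of this length. In the 250 bases before the Pck1 start (RefSeq, GRCr8, chr3:182348322-182348571, plus strand) 1 match began at position -93, in capitals below.
Pck1: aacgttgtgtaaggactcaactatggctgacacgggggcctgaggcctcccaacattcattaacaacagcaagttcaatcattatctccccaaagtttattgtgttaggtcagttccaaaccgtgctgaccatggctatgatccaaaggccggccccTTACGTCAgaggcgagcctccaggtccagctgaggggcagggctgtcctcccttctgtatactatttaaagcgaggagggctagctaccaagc
This match is a description of the sequence, and what bound there was not measured.

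Genes of fatty acid and cholesterol synthesis were lower in Group B. Of the 23 measured, 15 were lower at an unadjusted limma p under 0.05 and 0 higher, where over all genes 10.5% were lower and 6.47% higher. None passed the all-array adjustment. Their median difference was -0.64 against -0.11 over all genes, and in 9 of the 23 all Group B arrays lay below all Group D arrays, against 10.3% of all genes. In the D3-free fit 13 of the 23 fell (adjusted limma p under 0.05), against 12.8% of all genes.

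D3 did not take 1 place over this list, and it was nearer to D1 and D2 than to Group B for 10 of the 23. Fasn, the fatty acid synthase, read 9.87, 9.81 and 10.94 in D1, D2 and D3 and 8.84, 9.07 and 9.09 in Group B (difference -1.21 ± 0.30, SE, adjusted p = 0.176, limma). Me1, the malic enzyme that supplies NADPH for the same pathway, read 6.37, 6.33 and 9.07 against 5.68, 5.38 and 5.99. Acly, which makes cytosolic acetyl-CoA, read 9.65, 9.63 and 10.48 against 9.17, 9.27 and 9.37. In these genes, and in the carboxylase Acaca, which read 8.25, 8.30 and 9.42 against 7.75, 8.11 and 8.04, D3 was the highest of the 6 arrays and no supplemented array reached a control. The desaturase Scd departed from them, at 9.01, 8.45 and 11.89 in Group D and 9.28, 9.86 and 9.38 in Group B, above D1 and D2 and below D3.

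For several genes of the cholesterol branch D3 lay near Group B instead. Mvk, the mevalonate kinase, read 6.70, 6.52 and 5.83 in Group D and 5.91, 5.25 and 5.43 in Group B, Msmo1, a sterol oxidase, read 8.72, 8.69 and 7.86 against 7.89, 7.77 and 7.5, and Fdps, the farnesyl diphosphate synthase, read 9.54, 9.31 and 8.40 against 8.53, 8.29 and 8.09. D1 and D2 were highest for all 3 genes, with D3 overlapping Group B for Mvk, Msmo1 and Fdps. Without D3 they fell by 1.08, 0.98 and 1.13 (adjusted p = 0.0056, 0.0021 and 0.0073, limma). A further probe set of Mvk differed by -0.28 and another by 0.14. Nsdhl, a sterol dehydrogenase, kept all controls above all supplemented arrays, at 7.51, 7.31 and 7.0 against 6.68, 6.79 and 6.62, while a second probe set of it differed by 0.07. Mvd, the diphosphomevalonate decarboxylase, read 6.31, 5.98 and 5.84 against 5.43, 5.38 and 5.60, and Cyp51, the lanosterol demethylase, 9.09, 9.17 and 8.91 against 8.67, 8.61 and 8.56, again without overlap and with D3 nearer to D1 and D2.

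The promoters of 3 cholesterol genes are shown because their listed probe sets were low together, though further probe sets of Mvk and Nsdhl were not. The letters CCAAT, the box bound by NF-Y, a partner of SREBP at sterol genes, were searched on both strands (ATTGG on the other strand) and were present in 34% of the 33469 windows and in 13 of the 17 windows found for the 23 genes. Mvk (GRCr8, chr12:47819504-47819753, minus strand) held 5 matches, Nsdhl (chrX:155817110-155817359, plus strand) 5, and Msmo1 (chr16:29746863-29747112, plus strand) 3, and capitals mark them in these 250-base RefSeq windows, printed in the direction of the gene.
Mvk: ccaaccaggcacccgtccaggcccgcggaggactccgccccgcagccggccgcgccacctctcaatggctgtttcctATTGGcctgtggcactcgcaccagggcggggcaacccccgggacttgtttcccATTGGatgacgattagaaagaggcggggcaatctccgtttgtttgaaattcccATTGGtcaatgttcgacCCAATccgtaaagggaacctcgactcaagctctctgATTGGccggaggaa
Nsdhl: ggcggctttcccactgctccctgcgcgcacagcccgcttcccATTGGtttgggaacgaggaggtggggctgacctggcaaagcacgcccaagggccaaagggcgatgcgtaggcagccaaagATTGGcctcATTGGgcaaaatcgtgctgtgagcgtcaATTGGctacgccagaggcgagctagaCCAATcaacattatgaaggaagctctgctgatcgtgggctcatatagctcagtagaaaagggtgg
Msmo1: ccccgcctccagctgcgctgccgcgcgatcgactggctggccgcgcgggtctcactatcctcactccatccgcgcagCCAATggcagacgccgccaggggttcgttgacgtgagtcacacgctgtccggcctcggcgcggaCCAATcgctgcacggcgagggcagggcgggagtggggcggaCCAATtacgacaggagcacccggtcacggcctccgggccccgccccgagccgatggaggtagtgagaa
The boxes lay between -208 and -14 from the start. They describe the sequence alone: what bound there was not measured, and no SREBP site was searched.

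Other genes of fat and glucose handling went in both directions. Gpd1, which makes glycerol phosphate from a glycolytic intermediate, read 8.94, 9.38 and 9.30 in Group D and 8.11, 8.29 and 8.11 in Group B (difference -1.04, adjusted p = 0.0865, limma, and -0.99 without D3, adjusted p = 0.00403, limma). Pyruvate carboxylase, Pc, upstream of Pck1 in glucose synthesis, read 7.22, 7.28 and 7.65 against 5.91, 6.46 and 5.49 (difference -1.43, adjusted p = 0.174, limma). Slc2a4, the insulin-responsive glucose transporter of fat and muscle, read 6.06, 6.25 and 6.76 against 4.62, 5.60 and 5.44. The groups did not overlap for any of these 3 genes, and D3 stayed with the controls. Over the 9 genes of glyceroneogenesis and gluconeogenesis 3 were lower and 1 higher at an unadjusted limma p under 0.05, with Pck1 as the 1 higher. Over all genes 10.5% were lower and 6.47% higher. Of 18 adipocyte genes 5 were lower, against 10.5% of all genes, and 3 fell without D3, against 12.8%.

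Pdk4, the kinase that shuts off pyruvate oxidation, and Angptl4, an inhibitor of lipoprotein lipase, are PPAR targets and were higher in Group B. Pdk4 read 3.80, 4.39 and 5.23 in Group D and 5.83, 6.54 and 5.81 in Group B (difference 1.59, adjusted p = 0.162, limma, and 1.97 without D3, adjusted p = 0.000858, limma). Angptl4 read 7.49, 6.44 and 7.66 against 8.51, 8.48 and 8.16 (difference 1.19, adjusted p = 0.162, limma, and 1.42 without D3, adjusted p = 0.00225, limma). They were the 2 of 21 PPAR targets and fatty acid oxidation genes that were higher at an unadjusted limma p under 0.05, where 3 were lower. Over all genes 6.47% were higher and 10.5% lower. The median difference over the 21 was -0.05, and Cpt1a, the gate of mitochondrial fatty acid import, read 7.51 to 8.07 in Group D and 7.79 to 8.01 in Group B.

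Alox15, the lipoxygenase that oxygenates linoleic and arachidonic acid, read 5.29, 4.25 and 5.85 in Group D and 6.38, 7.21 and 7.15 in Group B, all supplemented arrays above all controls. Its difference was 1.78 ± 0.36 (SE, adjusted p = 0.132, limma) and 2.14 without D3 (adjusted p = 0.000925, limma). At an unadjusted limma p under 0.05, 10.5% of all genes were lower and 6.47% higher. Of the 14 eicosanoid genes 2 were lower and Alox15 was the 1 higher. Both lower members were brightest in D1 and D2. Ptgis, the prostacyclin synthase, read 6.82, 7.05 and 3.38 against 2.92, 1.38 and 3.62, and Pla2g2a, a secreted phospholipase, read 6.29, 5.70 and 3.70 against 0.00, 1.90 and 3.70.

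Genes of intestinal epithelium were lower in Group B. Of the 19 measured, 10 were lower at an unadjusted limma p under 0.05 and 0 higher, against 10.5% and 6.47% of all genes, with a median difference of -1.58. In 9 all supplemented arrays lay below all controls, against 10.3% of all genes. In contrast with the muscle genes below, D3 was nearer to D1 and D2 than to Group B in 15 of the 19. The list mean was 3.60, 4.84 and 5.06 in D1, D2 and D3 and 2.85 to 2.99 in Group B. Background was 2.33 to 2.93 on the Group B arrays, so their list means lay near it. The size of the median difference thus rests in part on values near background. Without D3, 4 of the 19 fell at an adjusted limma p under 0.05, against 12.8% of all genes.

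Tspan8, a tetraspanin of gut epithelium and the brightest member, read 7.16, 7.52 and 7.62 in Group D and 6.29, 6.12 and 6.52 in Group B (difference -1.13, adjusted p = 0.0837, limma). Epcam, the pan-epithelial adhesion molecule, read 3.70, 5.06 and 7.29 against 2.35, 2.80 and 0.88, at least 6.5-fold lower since Group B was within background and at least 3.32-fold lower without D3, and Vil1, the villin of brush borders, read 3.41, 4.39 and 4.85 against 0.00, 1.38 and 0.08, at least 2.96-fold lower. Reg3g, an antimicrobial lectin of enterocytes, read 5.74, 5.46 and 5.38 against 4.44, 3.83 and 3.56. Enterocyte genes of fat transport were listed at or near the floor in D1 also: Fabp1, a fatty acid binding protein, read 0.00, 5.46 and 5.38 in Group D, so the controls did not carry these markers evenly. Krt8, described above, is expressed by the same epithelium, and its values went with these genes in Group B. In tissue homogenates such as these, fewer cells of a type and less RNA per cell cannot be told apart.

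Some mast cell proteases were higher in Group B. Cpa3, the mast cell carboxypeptidase, read 5.97, 5.57 and 4.96 in Group D and 6.97, 6.65 and 7.82 in Group B (difference 1.65 ± 0.33, SE, adjusted p = 0.132, limma, and 1.38 without D3, adjusted p = 0.012, limma). Cma1, a chymase, read 5.74, 5.36 and 4.22 against 6.58, 6.50 and 7.36, and Tpsab1, a tryptase, 5.38, 3.88 and 1.64 against 6.32, 6.06 and 7.15. No Group B array fell to a control for these 3 genes, and B3 was the highest for each. Other members did not follow. Kit, the mast cell growth factor receptor, read 5.43, 5.02 and 4.17 against 3.88, 4.36 and 5.22, and Mcpt4, a further chymase, 2.36, 3.52 and 3.15 against 1.05, 2.75 and 1.99. Of the 11 mast cell genes 3 were higher and 0 lower at an unadjusted limma p under 0.05. Over all genes 6.47% were higher and 10.5% lower. None of the 11 passed the all-array adjustment, with an adjusted p of 0.166 for Cma1 and 0.221 for Tpsab1 (limma).

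**Figure D2:**
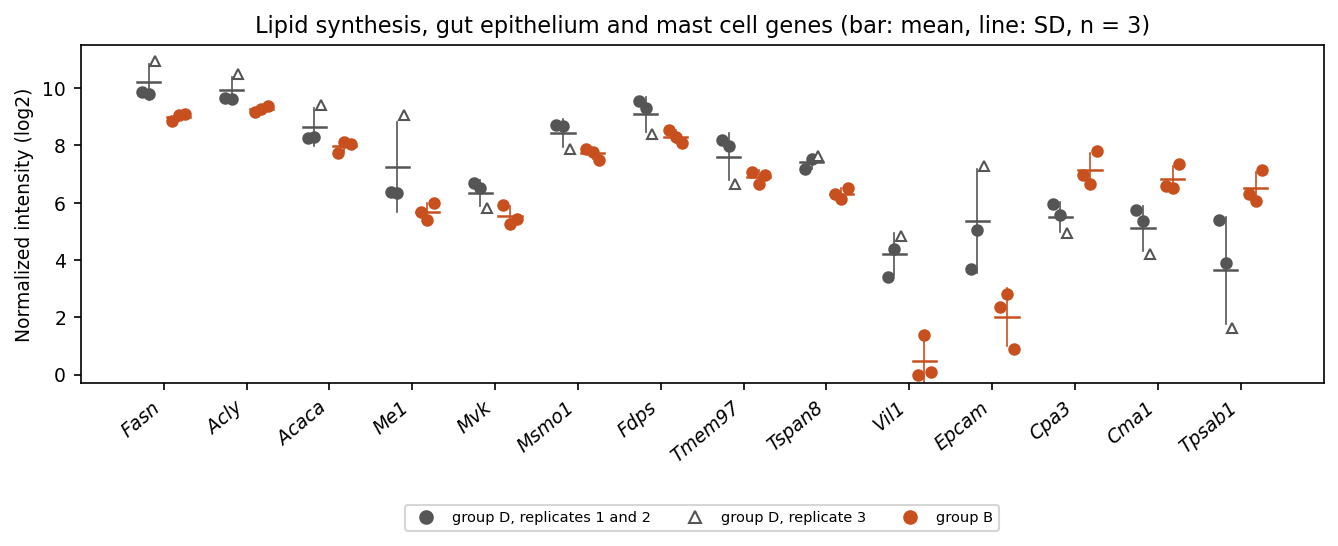
Normalized log2 intensity (vertical axis) of genes of lipid synthesis, gut epithelium and mast cells on each array of Groups D and B, each point 1 animal, bars group means and lines the SD (n = 3), D3 an open triangle. D3 was highest for Fasn, at 10.94, near Group B for Fdps, at 8.40, with the controls for Tspan8, at 7.62, and lowest for Cpa3, at 4.96.

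B cell genes were higher on this scale and not on the deposited one. Ms4a1, which encodes CD20, read 9.90, 9.68 and 9.97 in Group D and 10.22, 10.35 and 10.46 in Group B, a difference of 0.50 that was -0.22 on the values as deposited. Bank1, a B cell scaffold protein, read 7.97, 7.70 and 8.09 against 8.44, 8.47 and 8.48, a difference of 0.54 that was -0.04 as deposited. At an unadjusted limma p under 0.05, 5 of the 9 members of the B cell list were higher and 0 lower. Over all genes 6.47% were higher and 10.5% lower. None of the 9 passed the all-array adjustment, with an adjusted p of 0.155 for Ms4a1 and 0.169 for Bank1 (limma). The list median was 0.38 after quantile normalization, 0.31 after centring on the 75th percentile and -0.22 as deposited, where the median of all probe sets was itself -0.55. Relative to that shift the list was higher in each case.

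Leaving D3 out changed the number of calls by far. Without it 2577 probe sets (8.30%) passed, 719 lower in Group B (2.32%) and 1858 higher (5.99%). The split depended on scaling, with 4920 lower and 846 higher on the values as deposited and 645 lower and 1960 higher after centring on the 75th percentile. With all arrays the split was 3 lower and 2 higher, against 103 and 3 as deposited and 3 and 2 after centring.

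The calls made without D3 were uneven over the annotation. Of 9780 probe sets with no gene symbol, 11% rose and 1.10% fell, whereas of 20826 with 1 symbol 3.68% rose and 2.86% fell. Those with no symbol were dim, with a median of 3.56 in Group B against 5.45. Among genes with several probe sets and at least 1 rise, the brightest probe set was not called in 208 of 408, and for falls in 92 of 221.

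D3 was placed on each of the 2577 probe sets on a scale that is 0 at the mean of D1 and D2 and 1 at the mean of Group B. Its median place was 1.00, with quartiles of 0.834 and 1.14. It was nearer to Group B for 2358 and nearer to D1 and D2 for 219, which were 19.7% of the falls and 4.14% of the rises. The calls were made on the other arrays, so these places describe D3 and were not used to choose the probe sets.

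**Figure D3:**
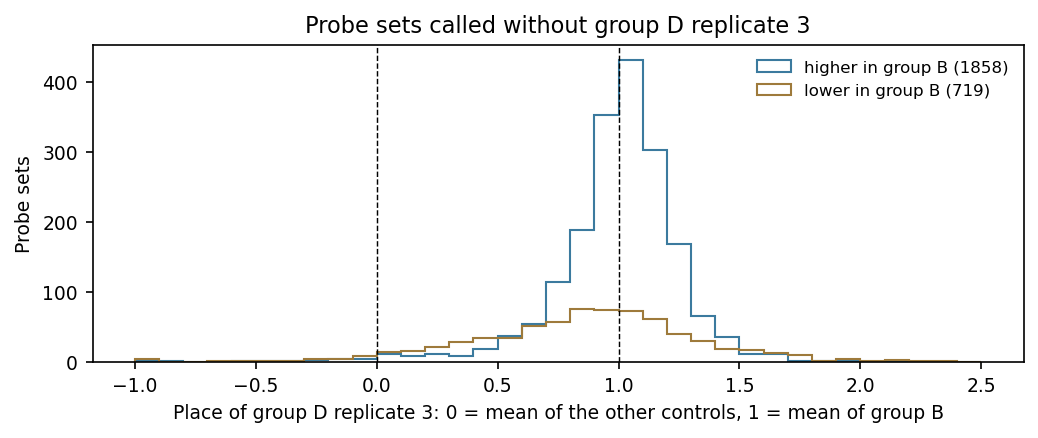
Place of D3 for the 2577 probe sets called without it (horizontal axis, no unit, 0 at the mean of D1 and D2, 1 at the mean of Group B, values beyond the axis counted at its ends) against the number of probe sets (vertical axis), for falls and rises. Medians were 0.896 for falls and 1.02 for rises.

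Genes of smooth muscle were far lower in Group B than in D1 and D2, and D3 lay nearer to Group B than to those arrays. Of 24 measured, 21 were lower at an unadjusted limma p under 0.05 with all arrays, and 22 fell without D3, with a median of -1.34 and -2.11. The list mean was 8.64 and 8.70 in D1 and D2, 6.66 in D3 and 6.29 to 6.38 in Group B. D3 was nearer to D1 and D2 for 0 of the 24. Even so, in 9 of the 24 all Group B arrays lay below all Group D arrays, against 10.3% of all genes. Over all genes 10.5% were lower at an unadjusted limma p under 0.05 and 12.8% fell without D3, shares against which the counts of muscle, nerve and stromal genes are to be read.

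Actg2, the gamma actin of visceral muscle, read 11.41 and 11.17 in D1 and D2, 5.88 in D3 and 4.45, 5.06 and 4.56 in Group B. D3 was thus above Group B, yet far nearer to it than to the other controls. The difference was -4.80 with all arrays (adjusted p = 0.176, limma) and -6.60, a 97.1-fold fall, without D3 (adjusted p = 0.000107, limma). Myh11, the smooth muscle myosin, read 9.75, 10.13 and 7.55 against 5.78, 5.91 and 6.07 (difference -3.22, adjusted p = 0.0837, limma, and -4.02 without D3, adjusted p = 1.1e-05, limma). Cnn1, the calponin of contractile cells, read 8.97, 8.70 and 5.07 against 3.32, 2.90 and 2.44. Acta2, the alpha actin shared with activated fibroblasts, read 9.19, 9.60 and 6.99 against 7.43, 7.06 and 7.35, so that D3 was the lowest array.

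Enteric neuron genes were highest in D1 and D2 as well, and D3 was nearer to those arrays than to Group B for 5 of the 25 measured. Of these, 11 were lower at an unadjusted limma p under 0.05 and 15 fell without D3. In 8 of the 25 all Group B arrays lay below all Group D arrays, against 10.3% of all genes. The list mean was 5.00, 4.93 and 2.98 in D1, D2 and D3. It was 2.66 to 2.94 in Group B, near the background of 2.33 to 2.93 on those arrays. Vip, a relaxing neuropeptide of the gut wall, read 5.53, 5.04 and 3.04 in Group D and 1.16, 0.37 and 0.00 in Group B, at least 3.70-fold lower since Group B was within background, and at least 6.21-fold lower without D3. Gal, the neuropeptide galanin, read 7.53, 7.67 and 3.39 against 3.49, 3.38 and 0.43, and fell without D3 (adjusted p = 0.00158, limma). Scn7a, a sodium channel of Schwann cells, read 7.35, 8.65 and 8.57 against 5.38, 5.62 and 6.32, with D3 among the controls. Over the 10 glial genes D3 was nearer to D1 and D2 for 4, and 3 were lower at an unadjusted limma p under 0.05, and over the 13 mesothelial genes, with Krt8 among them, 5 were.

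Of 35 genes of fibroblasts and extracellular matrix, 19 were lower and 1 higher at an unadjusted limma p under 0.05, and 26 fell without D3, D3 being nearer to D1 and D2 for 3 of the 35, with a list mean of 8.72, 9.24 and 7.87 against 7.79 to 7.94. Col1a1, the main chain of type I collagen, read 10.48, 11.27 and 10.18 in Group D and 8.97, 9.55 and 9.34 in Group B, and Mfap5, of elastic microfibrils, 9.04, 9.99 and 7.99 against 6.63, 6.96 and 6.07. Both kept all controls above all supplemented arrays, D3 lowest of the controls. In all, 10 of the 35 kept the groups apart in this way, against 10.3% of all genes. Eln, elastin itself, read 8.92, 9.68 and 7.64 against 7.05, 6.63 and 6.84, and Igf2, a fetal growth factor, 7.91, 8.68 and 6.47 against 6.24, 6.2 and 6.25, with D2 highest in both. Of 13 endothelial genes 5 were lower, among them Vwf, the clotting factor of vessel linings, at 6.2, 7.10 and 6.63 against 5.70, 5.43 and 5.29. The list means of muscle, nerve and matrix were higher in D1 and D2 than on the other 4 arrays, and their part in the other differences from D1 and D2 was not tested.

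**Figure D4:**
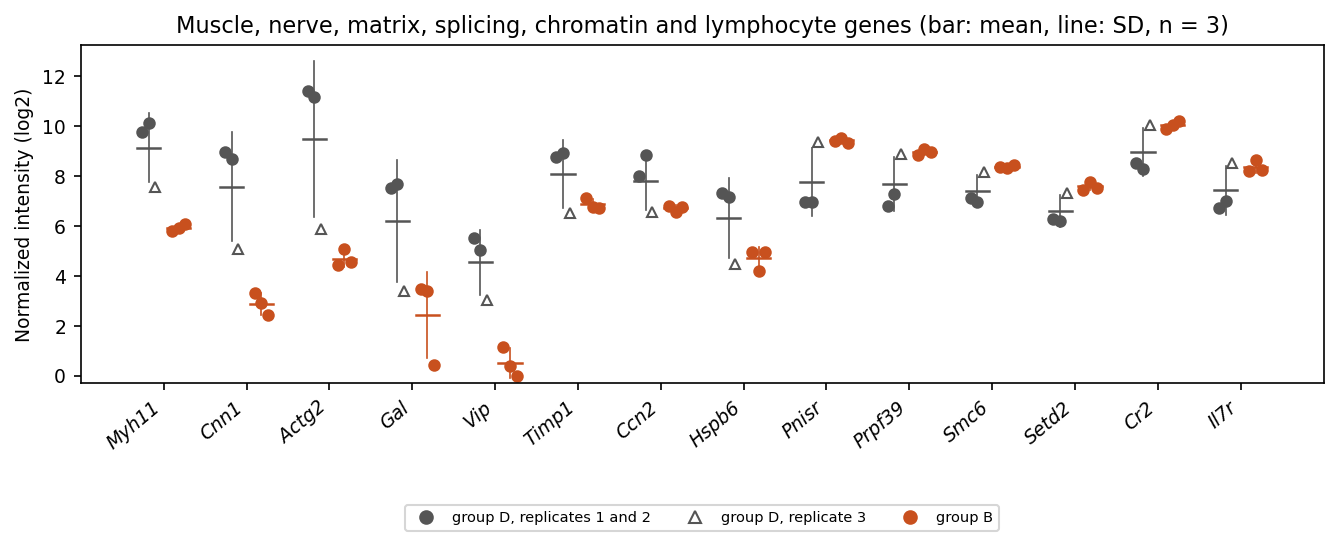
Normalized log2 intensity (vertical axis) of muscle, nerve, matrix, splicing, chromatin and lymphocyte genes on each array of Groups D and B, each point 1 animal, bars group means and lines the SD (n = 3), D3 an open triangle. For Actg2 D3 read 5.88 against 11.41 and 11.17 in D1 and D2, and for Pnisr it read 9.35 against 6.95 and 6.98.

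Connective tissue growth factor and related genes were singled out by the study on these samples, so their direction is no independent evidence. Ccn2, which encodes that factor, read 7.99, 8.84 and 6.56 in Group D and 6.82, 6.56 and 6.77 in Group B, and Timp1, an inhibitor of matrix proteases, 8.77, 8.94 and 6.51 against 7.13, 6.75 and 6.74. D3 lay about level with the lowest Group B array for Ccn2 and below all of them for Timp1. With all arrays the adjusted p was 0.245 for Ccn2 and 0.251 for Timp1 (limma), and without D3 they fell by 1.70 and 1.98 (adjusted p = 0.000431 and 1.4e-05, limma). Ackr3, a scavenging chemokine receptor, read 8.11, 8.26 and 6.84 against 6.58, 6.96 and 7.24 and fell without D3 (adjusted p = 0.00126, limma).

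Il7r, the receptor chain that keeps naive T cells alive, read 6.73, 7.01 and 8.54 in Group D and 8.21, 8.63 and 8.24 in Group B, with D3 above B1 and B3, and rose by 1.49 without D3 (adjusted p = 0.000359, limma). Syt1, a calcium sensor of synaptic vesicles, read 3.49, 3.80 and 2.25 against 3.61, 2.97 and 3.56, and the groups overlapped. Grb2, the adaptor of growth factor receptors, was measured by 3 probe sets that disagreed. The brighter pair differed by -0.08 and -0.03, while the dimmest read 4.96, 4.53 and 6.72 against 6.38, 6.46 and 6.39. By real-time PCR the study reported lower Ctgf (Ccn2), Timp1, Gal, Syt1, Actg2 and Acta2 with CLA. It reported no change of Grb2 by that method.

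Lists of the TGF-beta and BMP pathway, of Timp and metalloproteinase genes and of heat shock genes also leaned lower in Group B. The shares over all genes were 10.5% lower at an unadjusted limma p under 0.05. Without D3, 12.8% fell and 7.15% rose at an adjusted limma p under 0.05. Of 29 genes of the TGF-beta and BMP pathway 13 were lower at an unadjusted limma p under 0.05, and without D3 15 fell and 1 rose. Id1, a BMP target, read 8.88, 8.85 and 8.03 in Group D and 7.96, 7.64 and 7.75 in Group B, and the ligand Tgfb3 6.15, 6.56 and 4.85 against 4.53, 4.42 and 4.34, both without overlap. Of 12 Timp and metalloproteinase genes 4 were lower and 7 fell without D3. Among 13 heat shock genes 6 were lower and 8 fell without D3, including Cryab, a small chaperone of muscle, at 7.21, 7.45 and 5.79 against 5.50, 5.50 and 5.35, and Hspb6, a further 1 of smooth muscle, at 7.31, 7.17 and 4.49 against 4.97, 4.2 and 4.96.

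**Figure D5:**
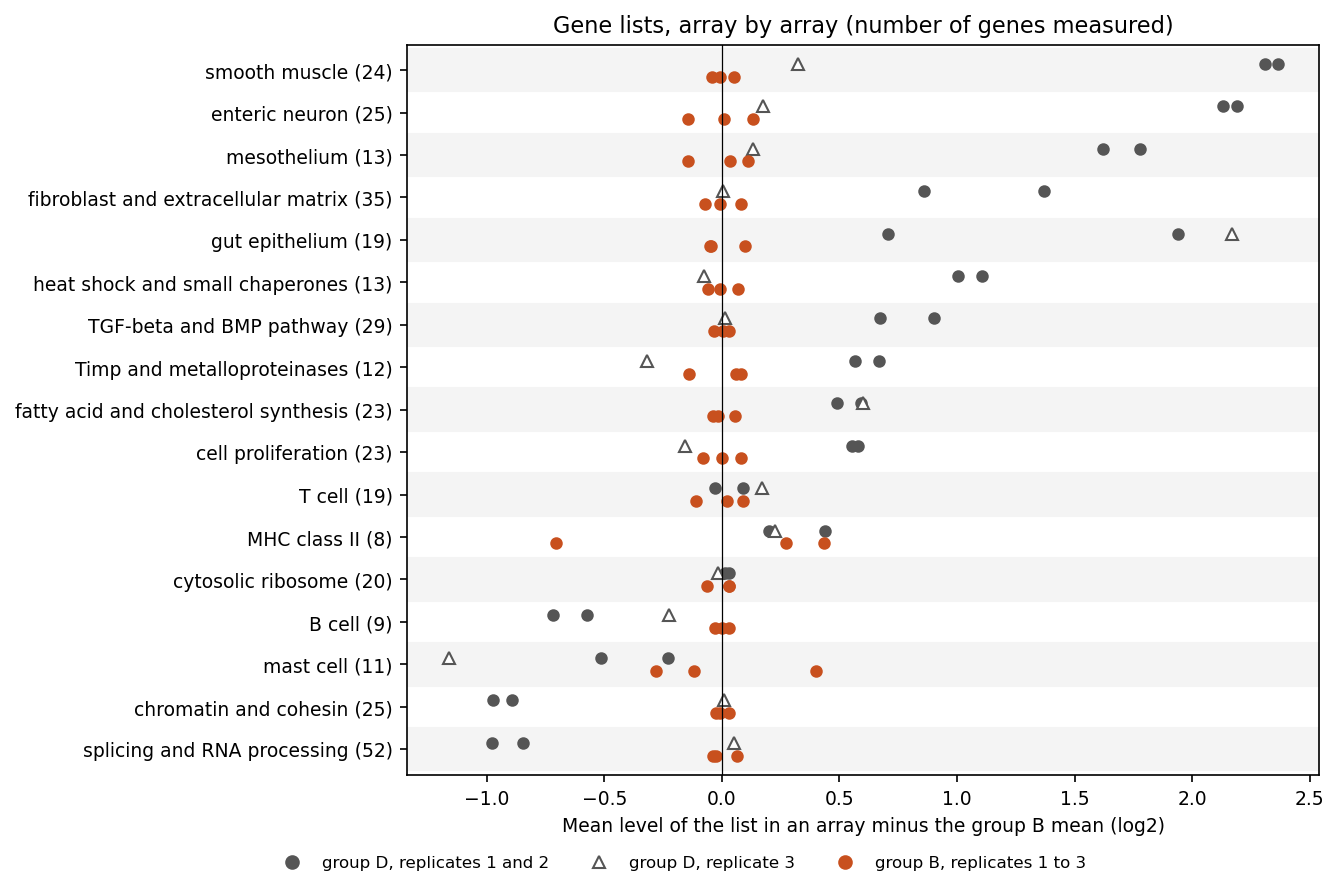
Mean normalized log2 intensity of a gene list on each array of Groups D and B minus the mean of Group B (horizontal axis, log2), with 1 band to a list, 1 point to an animal and D3 as an open triangle. D1 and D2 were high for smooth muscle (means 8.64 and 8.70, D3 6.66, Group B 6.29 to 6.38) and low for splicing (8.0 and 8.13, D3 9.03, Group B 8.94 to 9.04).

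Genes of splicing and chromatin were higher in Group B than in D1 and D2, and D3 matched Group B. Of 52 splicing and RNA processing genes 30 were higher and 0 lower at an unadjusted limma p under 0.05, and 38 rose without D3, and of 25 chromatin and cohesin genes 14 were higher and 19 rose. Over all genes 6.47% were higher at an unadjusted limma p under 0.05 and 7.15% rose without D3. The medians were 0.52 and 0.52 after quantile normalization, 0.42 and 0.51 after centring on the 75th percentile, and -0.10 and -0.02 on the deposited values, where all probe sets shifted by -0.55. Pnisr, a splicing regulator, read 6.95, 6.98 and 9.35 in Group D and 9.42, 9.53 and 9.33 in Group B, and rose by 2.46 without D3 (adjusted p = 3.6e-06, limma). Clk4, a kinase of splicing factors, read 6.2, 6.86 and 8.16 against 8.35, 8.29 and 8.28, and Prpf39, of the U1 particle, 6.82, 7.30 and 8.90 against 8.86, 9.10 and 8.96.

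Smc6, a subunit of a cohesin-like repair complex, read 7.12, 6.97 and 8.15 in Group D and 8.38, 8.32 and 8.43 in Group B. Setd2, which trimethylates histone H3 along transcribed genes, read 6.28, 6.19 and 7.34 against 7.46, 7.77 and 7.53. In both the groups were apart, with D3 closer to Group B. The level in the milk-route group also stood with D1 and D2: the splicing list mean was 7.74 to 8.08 in Group A and 8.91 to 9.12 in Group C.

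Probe sets of 1 gene did not all share these rises. Hnrnpu, a nuclear matrix protein that binds nascent RNA, had 1 probe set at 5.11, 5.69 and 9.03 in Group D and 8.69, 8.89 and 8.70 in Group B. A second probe set read 10.80, 10.69 and 10.92 against 10.83, 10.99 and 10.85, and another 8.99, 9.25 and 9.08 against 9.20, 9.46 and 9.08. Without D3 the first rose by 3.36 (adjusted p = 2.7e-06, limma), and the others differed by 0.15 and 0.12 (adjusted p = 0.408 and 0.671, limma).

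None of the listed genes of immune cells passed the all-array adjustment. At an unadjusted limma p under 0.05, 10.5% of all genes were lower and 6.47% higher. Of 19 T cell genes 1 was higher, Il7r, and 1 lower at an unadjusted limma p under 0.05, with a median of -0.15. Cd3g, a chain of the T cell receptor complex, read 10.74 to 11.07 in Group D and 10.84 to 10.88 in Group B. Of 14 macrophage and dendritic cell genes 1 was lower, Itgax, the integrin chain of dendritic cells, at 6.75, 6.60 and 6.48 against 5.57, 5.46 and 5.71, a difference of -1.03 (adjusted p = 0.176, limma). Of 9 plasma cell genes 1 was lower, Sdc1, the syndecan of plasma cells and epithelia, at 6.95, 7.05 and 6.23 against 5.80, 5.75 and 5.90.

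At the same unadjusted p, cytokine genes gave 2 lower of 17, interferon response genes 1 lower and 1 higher of 16. MHC class II genes gave 0 of 8 in either direction. Over all genes 10.5% were lower and 6.47% higher. In the MHC class II list RT1-Bb, a beta chain that presents antigen, read 3.20 in B1 and 10.67 to 11.19 on the other 5 arrays. For 20 cytosolic ribosome genes no member was past an unadjusted limma p of 0.05, with a median of -0.01. Among 24 genes of the mitochondrial respiratory chain 8 were lower, against 10.5% of all genes, with a median of -0.18, and 9 fell without D3, against 12.8%. Among 23 proliferation genes 5 were lower, with a median of -0.30, and 11 fell without D3, where the median was -0.57. Of 8 housekeeping genes 1 was lower and 1 higher.

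The largest differences were ranked among probe sets with 1 gene symbol, no overlap, an unadjusted limma p under 0.05 and a fold of 2. Every array of the brighter group also had to be above background, so that group was high by choice. The dimmer group mainly lay at or near background. Beside Actg2 and Cnn1, the 10 largest falls that kept the groups apart included Car1, a carbonic anhydrase of colon epithelium and red blood cells, at 3.91, 8.05 and 8.81 in Group D and 0.79, 0.00 and 2.44 in Group B, and Pln, phospholamban, the calcium pump regulator of muscle, at 5.58, 5.73 and 4.54 against 2.53, 0.48 and 0.60, at least 6.2-fold lower. Car1 was high in D2 and D3 and Pln in all controls. Adh1c, an alcohol dehydrogenase that also handles retinol, read 5.55, 5.80 and 3.97 against 0.79, 2.30 and 1.26, at least 5.49-fold lower. Of the 10 largest rises among probe sets with 1 gene symbol, which leaves out the globin probe set, only Tpsab1 read above 5 in every Group B array, and Dido1, Arpc5l and Rnf114, at 4.49 to 4.81, 4.40 to 5.39 and 3.97 to 4.22 in Group B, had 2 of 3 control arrays within background.

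Against Group C, which had the same gavage without the gestational diet, Group B differed in 1 of 31042 probe sets (0.00322%), and at an unadjusted limma p under 0.05 1.93% of genes were lower and 1.96% higher. Krt8 read 5.35, 5.14 and 5.24 in Group C, near the 4.94 to 5.32 of Group B, and Pck1 read 8.22, 8.18 and 7.85, between Groups D and B. Metrn read 3.62, 3.81 and 3.92 in Group C, above the 0.48 to 2.11 of Group B. None of these 3 genes passed in the test of Group B against Group C.

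Against Group A, 4966 probe sets (16.0%) passed in the same fit. The 3′ to 5′ ratio for Gapdh was 1.21 to 1.53 in Group A and 1.10 to 1.12 in Group B, without overlap. That for hexokinase was 2.84 to 4.96 and 1.62 to 3.24. The part of RNA integrity or labelling in these calls was not tested. Metrn was lower in Group B by 3.77 (adjusted p = 7.71e-05, limma), with 5.28, 4.90 and 4.96 in Group A. Krt8 read 6.14, 5.73 and 5.53 in Group A, above Group B by 0.70 (adjusted p = 0.0247, limma). Pck1 read 8.84, 8.68 and 9.15 in Group A, a difference of 0.04 (adjusted p = 0.902, limma) that was -0.54 on the values as deposited.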

How the data were processed

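The 12 arrays form 4 groups of 3 animals. Total RNA of the nodes of each animal was hybridised by the authors to the Affymetrix rat whole-genome array. The deposited intensity values are linear MAS5 signals, 1 column a sample, with no scaling between arrays stated. The authors normalized to the median of the control group in GeneSpring and used p under 0.05 with a fold of 2.

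For the present report 30 zeros were set to the smallest positive value of 0.1. Intensities were taken to log2, quantile-normalized over 12 arrays and then floored at a linear intensity of 1. Of the 31099 probe sets, 57 controls were left out of the tests. limma 3.58.1 in R 4.3.3 (1 mean a group, empirical Bayes with a variance trend) was fitted to all arrays, with Benjamini-Hochberg adjustment over 31042 probe sets, and probe sets at an adjusted p under 0.05 that also changed at least 2-fold were called. The script was checked on simulated data. Array signals give no counting depth, and 3 animals a group limit the precision.

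The platform annotation gave 20826 probe sets 1 symbol, 436 several and 9780 none, and 20758 of the first matched a current gene number in the RefSeq table of GRCr8, used for names only. Lists use 1 probe set a gene, the brightest of 14217. Promoters came from RefSeq, GRCr8. Named are all calls, the genes the study discussed, up to 4 members of each list by smallest p, members called without D3 or moving against their list, and the 10 largest non-overlapping rises and falls with all arrays and without D3. For these rises and falls, only probe sets with 1 symbol and every array of the brighter group above background were taken. Genes of the lists outside this naming rule, and the probe sets set against them, were chosen after their values were seen. Members, lists and the normalization were chosen with earlier results of these data known. The lists were of muscle, nerve, glia, mesothelium, matrix, endothelium, node stroma, leukocytes, red cells, gut, pancreas, fat, lipid and glucose metabolism, RNA processing, chromatin, stress, growth and signalling. Alternatives covered scaling, floor, a filter on dim probe sets, variance trend, samples fitted, adjustment, replicate block, 1 probe set a gene and each array left out.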

Additional observations from a re-analysis of the deposited data

Results flagged for a closer look

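A single probe set, without a gene symbol, passed in Group B against Group C. Its arrays read 5.22, 5.97 and 6.18 with the gestational diet and 0.00, 0.48 and 0.00 without, a difference of 5.63 ± 0.36 (SE, adjusted p = 3.49e-05, limma), and it stands here because these groups differ in the gestational diet alone. Group D read 5.40, 5.61 and 6.38 and Group A 6.46, 6.73 and 6.25, so Group C stood apart from all others, and Group B minus Group D was -0.01 (adjusted p = 0.996, limma).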

How the results depend on the processing

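Counts below are falls and then rises in Group B against Group D. With all arrays (3 and 2) they were 103 and 3 on the values as deposited, 8 and 6 without the variance trend, 0 and 0 with only Groups B and D fitted, 803 and 1281 at an unadjusted limma p under 0.05, 434 and 315 at an unadjusted p in the unmoderated fit of only these groups, and 1 rise with 1 probe set per gene. Leaving out 1 array gave 1 to 719 falls and 1 to 1858 rises, both maxima without D3. In the fit without D3 (719 and 1858) they were 4920 and 846 as deposited, 321 and 974 with a floor of 32 and 404 rises with 1 probe set per gene, and leaving out a further array gave 408 to 709 and 1444 to 1707, the 408 without D2. Group B against Group C gave 2 rises as deposited, and with 1 array left out 0 to 9 falls and 1 to 5 rises, the highest without D3. Differences that turned sign were those of Ms4a1 (-0.22) and Bank1 (-0.043) as deposited, Pck1 against Group A (-0.54) as deposited, and those of the 2 brighter Grb2 probe sets, which with 1 array left out ranged from -0.21 to 0.024 (the latter without D1) and from -0.11 to 0.012 (above 0 without D1, and 0.0084 without D3). The causes were not tested. The replicate numbers did not pair the samples (correlations of deviations 0.031, 0.012 and -0.007), and with the number as a replicate block the counts were 3 and 2, or 642 and 1643 without D3, and the Pilrb call was lost (adjusted p = 0.0733, limma). The 3 animals a group, and probe sets within background, limit what could be detected.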
